A study of Saccharomyces cerevisiae with 15 samples.

Results

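The genes described here are budding yeast open reading frames (ORFs) that the array annotation lists only by a systematic name and whose signal differed between initial mannose concentrations. A row of the table, which is 1 probe set of the array, was taken when its single symbol was a systematic name, when the highest of its 5 group means of signal was 50 or more, and when that mean was at least 2.5 times the lowest. A lowest mean under the background level of 13.5 was set to that level, taken as the 95th percentile of the signals of 13 control probe sets (mouse genes and antisense strands). The members were thus chosen by their group means of signal at the 5 concentrations. Of 9335 rows, 537 carried only a systematic name, and 59 of these, for 47 ORFs, met the limits. All 47 ORFs were found in the RefSeq gene table of assembly R64, where 0 of them have a gene name, 2 have a synonym and 1 is entered as a pseudogene.

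The strain was Saccharomyces cerevisiae deleted for PMI40, made from CEN.PK113-7A. PMI40 encodes phosphomannose isomerase, which interconverts fructose 6-phosphate and mannose 6-phosphate, so the deletion strain takes mannose for glycoproteins and cell wall mannan from the medium. All 15 samples, 3 arrays for each group, came from this deletion strain, which grew aerated in mineral medium with 15 g/L glucose, and the groups differed in initial mannose, at 0.75, 1, 1.5, 3 or 5 g/L. RNA was taken 6 h after inoculation, and no parent strain is among the groups compared.

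A systematic name gives the place of an ORF on a chromosome, and it stays the only name until a function is assigned and a gene name registered. Many such ORFs nevertheless belong to known families. Yeast cells that slow their growth or run short of a nutrient are known to raise genes of storage carbohydrates, heat shock proteins, oxidoreductases and membrane stress proteins, and to lower genes of ribosome biogenesis. Ty elements, the retrotransposons of yeast, add a group of ORFs of nearly identical copies, and Ty3 is known to be transcribed in response to mating pheromone.

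Arrays of the same concentration correlated at 0.956 to 0.982 across probe sets. Array medians of signal ran from 20.1 to 22.1 at 0.75 g/L and from 23.3 to 27.0 otherwise, and the 3'/5' signal ratio of ACT1, a sign of RNA integrity, was 1.86 to 2.36 at 0.75 g/L and 1.37 to 2.17 elsewhere. The probe set of the deleted gene PMI40 gave a mean signal of 258 ± 21.2 (SD, n = 3, as for all means below), 159 ± 43.7, 237 ± 29.7, 221 ± 14.6 and 241 ± 11.4 from the lowest to the highest mannose, so this probe set does not check the deletion unless its probes lie in the removed part, for which no source was used here. Stations and times in the array records gave 4 fluidics runs. Run A combined all 0.75 g/L arrays with replicate 1 of 3 g/L, while run B combined replicates 2 and 3 of 3 g/L with replicates 1 and 2 of 5 g/L. Run C combined all 1.5 g/L arrays with replicate 3 of 5 g/L. The 1 g/L arrays made up run D by themselves, so that run and that concentration cannot be told apart. In 5 arrays, which include the 4 of run A, the record says that the fluidics run was not completed.

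The differences between concentrations chose the rows, so they are given as a description without a test. The 59 rows fell mostly into a pair of patterns: 28 rows, for 28 ORFs, had their highest mean at 0.75 g/L, and 25 rows, for 13 ORFs, had it at 5 g/L. The highest mean was at 1 g/L in 3 rows, at 1.5 g/L in 3 rows and at 3 g/L in 0. Among 673 rows with a gene name that met the same limits, 37.0% were highest at 0.75 g/L and 25.4% at 5 g/L. Of the 59 rows these shares were 47.5% and 42.4%, but 12 of the 59 are repeated rows of 1 ORF. Counted by ORF, 28 of the 47 were highest at 0.75 g/L and 13 at 5 g/L. The row share at 5 g/L thus rests partly on repeated rows. The limits were met by 11.0% of rows with only a systematic name and by 11.3% of rows with a gene name. Among rows with a highest mean of 50 or more these shares were 30.9% (59 of 191) and 21.9% (673 of 3079), and counted once for each symbol they were 29.2% and 22.0%.

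**Figure D1:**
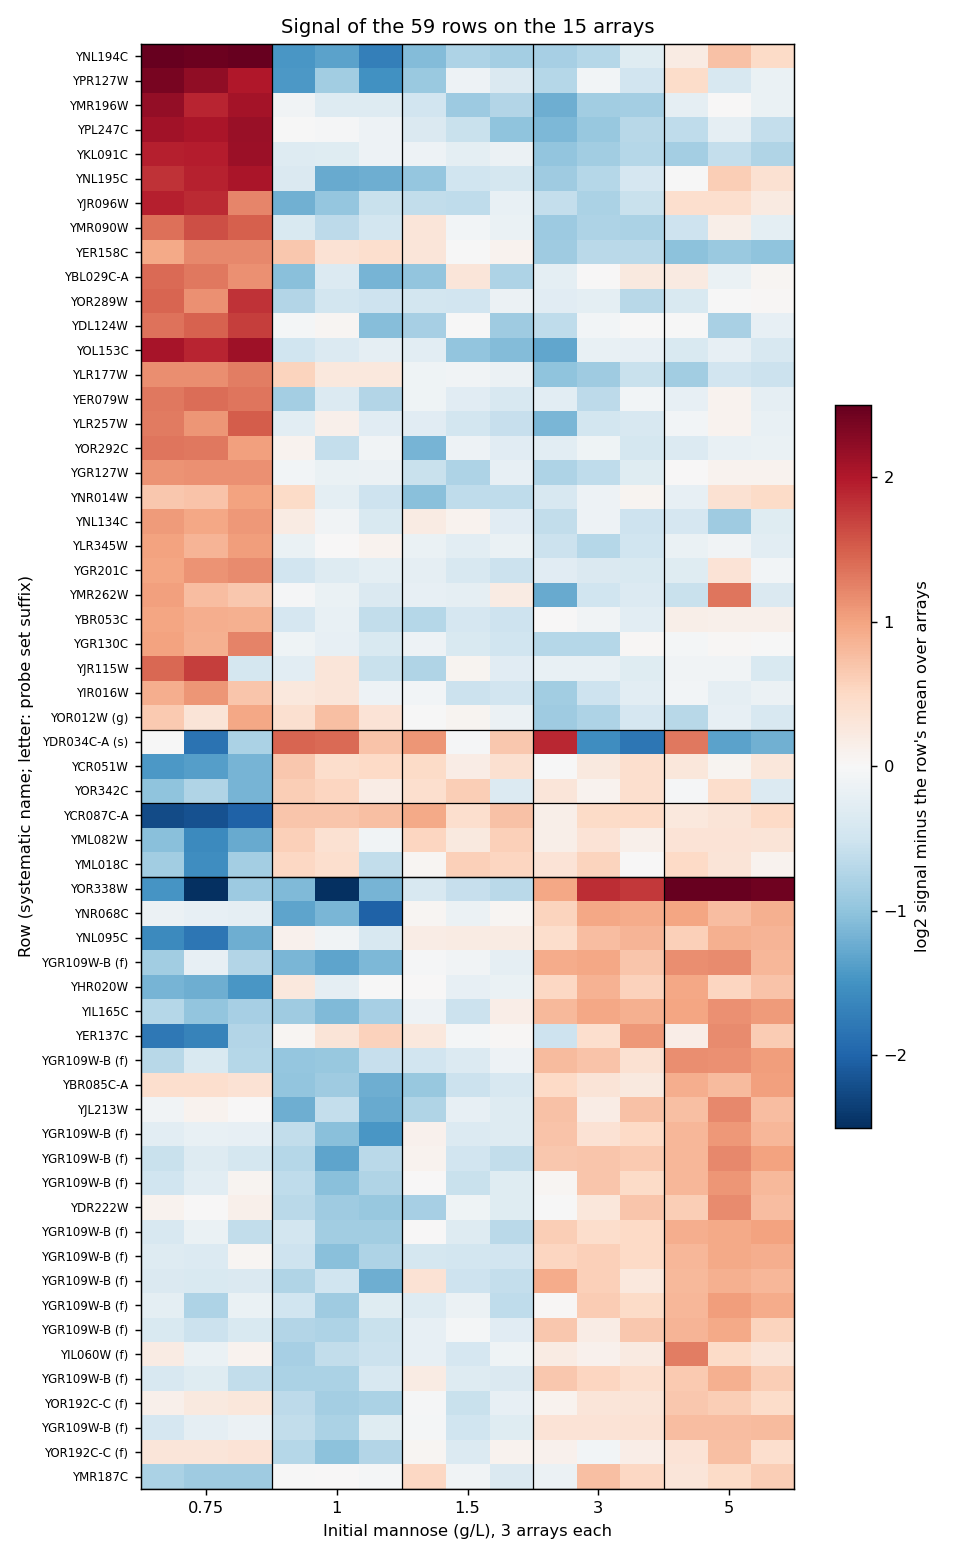
Log2 signal of each of the 59 rows on the 15 arrays, minus the row's mean over arrays. Columns are arrays by initial mannose (g/L) and black horizontal lines part the rows by the concentration of the highest mean: 28 rows are highest at 0.75 g/L, 3 at 1 g/L, 3 at 1.5 g/L and 25 at 5 g/L. A letter after a name is the suffix of the probe set.

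All 59 rows passed the filter on dim probe sets. For reading the counts that follow, the limma fit across all 6956 tested probe sets called a trend with the logarithm of mannose in 14.3% toward higher and 9.34% toward lower signal (adjusted p under 0.05), and any difference between the concentrations in 46.6%. Among the 59 rows the trend was called higher in 22 and lower in 8 and not called in 29, and any difference was called in 56. The rule used these contrasts, so nothing is read from these counts. The rule favours rows whose highest and lowest group do not overlap, and no share over all probe sets was computed for this. Nothing is therefore read from the 58 of the 59 rows without overlap, the other being YJR115W.

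The rows highest at 0.75 g/L were led by YNL194C, an integral membrane protein of the SUR7 family. Its signal was 483.2, 422.8 and 440.2 with 0.75 g/L, 28.0, 30.6 and 23.7 with 1 g/L, 36.2, 45.4 and 42.8 with 1.5 g/L, 43.3, 47.2 and 62.5 with 3 g/L, and 88.5, 127.6 and 106.7 with 5 g/L. The 3 arrays at 0.75 g/L thus stood above all the others, at a mean 16.4 times that at 1 g/L, and the arrays at 5 g/L in turn stood above all those at 1, 1.5 and 3 g/L. The adjacent ORF YNL195C gave 124.7, 135.7 and 147.4 at 0.75 g/L and means of 19.3 ± 7.2, 23.3 ± 4.4, 22.6 ± 3.7 and 45.6 ± 9.6 at 1, 1.5, 3 and 5 g/L. The pair correlated at 0.974 over the 15 arrays, and neither has a name.

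Oxidoreductase families supplied several of these rows. YPR127W, an aldo-keto reductase family member, gave 600.4, 541.4 and 465.4 with 0.75 g/L, 43.2, 63.9 and 40.5 with 1 g/L, 61.6, 106.0 and 90.6 with 1.5 g/L, 70.8, 110.9 and 83.8 with 3 g/L, and 160.7, 88.5 and 104.3 with 5 g/L. Its 0.75 g/L arrays did not overlap with any other, and each remaining group overlapped with the next higher concentration. The other members of the same family, YJR096W and YDL124W, had means of 269.7 ± 68.1 and 567.6 ± 74.3 at 0.75 g/L against 44.4 ± 10.2 and 163.0 ± 60.3 at 1 g/L. YNL134C, of the alcohol dehydrogenase family, had 484.5 ± 21.2 at 0.75 g/L, 224.0 ± 45.7 at 1 g/L and 164.9 ± 33.2 at 5 g/L. YGR201C, which resembles the glutathione transferase domain of elongation factor 1 gamma, had 75.6 ± 5.1 at 0.75 g/L and between 27.0 and 35.5 at the other concentrations.

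YPL247C, a WD-repeat protein, had a signal of 564.3, 544.6 and 588.0 with 0.75 g/L, 130.3, 128.1 and 121.3 with 1 g/L, 102.5, 89.5 and 65.7 with 1.5 g/L, 60.2, 67.8 and 81.8 with 3 g/L, and 85.0, 112.8 and 87.0 with 5 g/L. YKL091C, a homologue of the phosphatidylinositol transfer protein Sec14, gave 511.2, 522.7 and 588.2 with 0.75 g/L, 106.4, 108.2 and 121.9 with 1 g/L, 121.7, 113.2 and 119.9 with 1.5 g/L, 67.6, 73.4 and 81.3 with 3 g/L, and 74.3, 87.8 and 78.9 with 5 g/L. In both ORFs the 0.75 g/L arrays stood far above the rest and the lowest mean was at 3 g/L, with ratios of 8.09 and 7.30. The uncharacterised YMR196W had the same lowest concentration, with a mean of 586.9 ± 59.5 at 0.75 g/L and 119.2 ± 11.0 at 1 g/L, then 60.3, 77.2 and 78.1 on the arrays at 3 g/L and 129.0 ± 11.0 as the mean at 5 g/L. YMR090W, also uncharacterised, ran from 443.9 ± 35.8 at 0.75 g/L to 88.5 ± 4.7 at 3 g/L.

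YER158C, the paralog of the pheromone response gene AFR1, was the row whose means fell at every step of concentration. Its means were 183.4 ± 18.1, 118.0 ± 13.5, 91.8 ± 10.3, 50.2 ± 4.1 and 42.5 ± 1.7. YLR177W, paralog of PSP2, had means of 205.7 ± 9.5, 115.8 ± 14.3, 82.7 ± 1.6, 51.2 ± 8.4 and 58.3 ± 7.9. In both ORFs all arrays at 0.75 g/L were above all at 1 g/L, and these above all at 3 and 5 g/L. YOL153C, entered as a pseudogene and related to the vacuolar carboxypeptidase gene CPS1, gave 56.0, 50.4 and 58.4 at 0.75 g/L and at most 11.8 on every other array, under the background level, so the 0.75 g/L mean was at least 4.07-fold higher.

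YOR292C, of the Mpv17 family of inner membrane proteins, had 51.4 ± 6.1 at 0.75 g/L and 15.9 to 19.3 at the other concentrations. YLR345W, which resembles 6-phosphofructo-2-kinase, had means of 288.4 ± 19.7 and 98.6 ± 7.5 at 0.75 and 3 g/L, and those of YGR130C, a component of the eisosome under the plasma membrane, were 75.0 ± 9.7 and 27.2 ± 8.6. The uncharacterised ORFs YBL029C-A, YOR289W, YER079W, YLR257W, YGR127W, YNR014W, YBR053C, YIR016W and YOR012W had ratios of highest to lowest mean from 2.54 (YOR012W) to 4.27 (YBL029C-A). Among these YGR127W had the least spread at 0.75 g/L, with 222.8, 223.6 and 225.5 against 59.3 to 108.7 on the other arrays. YOR012W has 3 rows, and its row within the limits had 64.4 ± 14.4 at 0.75 g/L and 57.6 ± 9.0 at 1 g/L, which overlapped. Its other rows missed the limits, with highest means of 85.9 and 17.8 at ratios of 1.83 and 1.32.

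In 2 ORFs single arrays set the picture. YJR115W, paralog of ECM13, gave 74.8, 91.9 and 20.3 at 0.75 g/L, so 1 of the 3 arrays lay among the 16.4 to 34.0 of the other groups, and it missed the limits without replicate 1 or without replicate 2 of 0.75 g/L. YMR262W, a TatD family nuclease homologue, gave 256.4, 215.3 and 201.8 at 0.75 g/L, but 85.4, 320.0 and 97.8 at 5 g/L, where the highest value of all its arrays stands. Over all 28 rows, 25 had every 0.75 g/L array above the other 12, which held for 9.93% of all tested probe sets. The exceptions were these 2 ORFs and YOR012W. The rule and the grouping by highest mean favour such rows, so nothing is read from the 25 beside that share.

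The 0.75 g/L mean was at least 2.5 times the 1 g/L mean in 17 of the 28 rows and at least 2 times in 22, with a median of 2.73 and a range from 1.12 to 16.4. The mean at 5 g/L was above that at 3 g/L in 25 rows, and in 11 of them every array at 5 g/L was above every array at 3 g/L. The shares over all probe sets were not computed for these counts, so nothing particular to the ORFs is read from them. The lowest mean was at 1 g/L in 7 rows, at 1.5 g/L in 7, at 3 g/L in 12 and at 5 g/L in 2. Within fluidics run A the 0.75 g/L mean was 1.88 (YBR053C) to 10.4 (YNL194C) times the single 3 g/L array, with a median of 3.91. Of the 28 rows, 26 reached 2.5 there. The rule used these same arrays, and no share over all probe sets was computed, so nothing is read from the 26. Since RNA from whole cultures was measured, fewer cells with a transcript and less of it in each cell cannot be told apart.

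**Figure D2:**
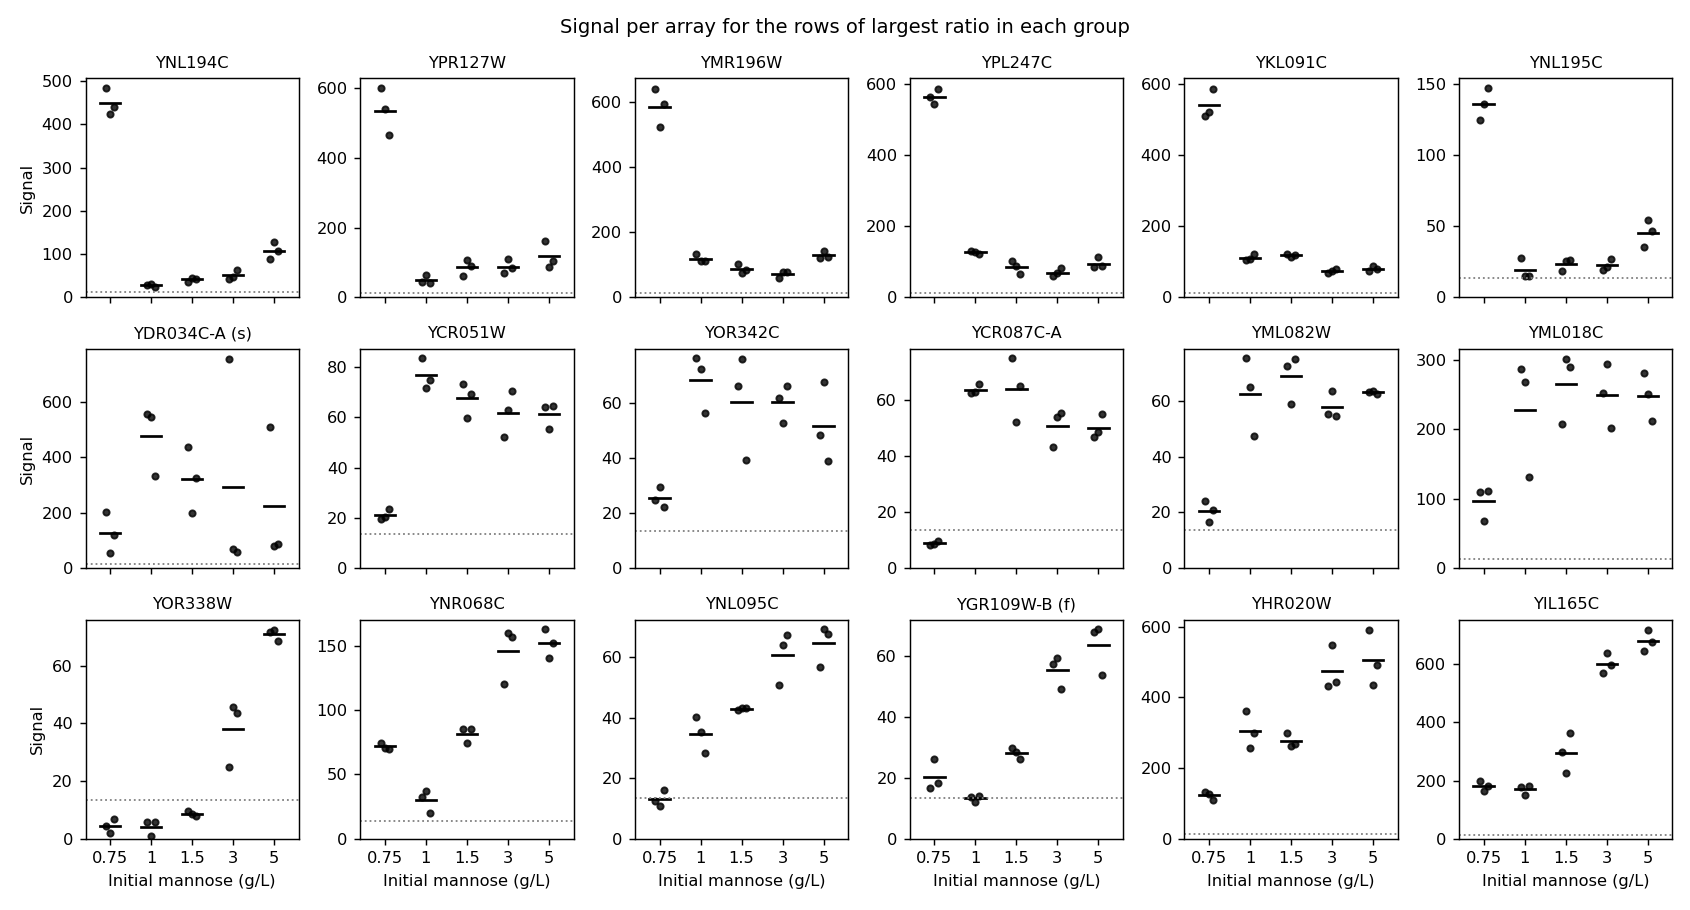
Signal of each array (points) and the mean of 3 arrays (bars) by initial mannose in g/L, on equally spaced positions, for the rows with the largest ratio among those highest at 0.75 g/L (top), at 1 or 1.5 g/L (middle) and at 5 g/L (bottom). The dotted line is the background level of 13.5, and each panel has its own scale from 0. YDR034C-A shows arrays of 1 concentration far apart, while in YNL194C and YOR338W the highest group stands clear of the rest.

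The rows highest at 1 or 1.5 g/L were all lowest at 0.75 g/L. In 5 of the 6, every array from 1 to 5 g/L stood above those at 0.75 g/L. YCR087C-A, a zinc finger protein of the nucleolus, gave 8.2, 8.6 and 9.6 with 0.75 g/L, under the background level, and 62.5, 62.6 and 65.6 with 1 g/L, 74.7, 51.9 and 64.8 with 1.5 g/L, 43.2, 53.9 and 55.1 with 3 g/L, and 46.8, 48.5 and 54.9 with 5 g/L. Its mean at 1.5 g/L was at least 4.73-fold higher than at 0.75 g/L. YCR051W, which holds ankyrin repeats, gave 19.6, 20.3 and 23.6 with 0.75 g/L, 83.7, 71.6 and 75.0 with 1 g/L, 73.5, 59.7 and 69.5 with 1.5 g/L, 52.2, 62.9 and 70.6 with 3 g/L, and 64.1, 55.5 and 64.5 with 5 g/L. In both, the 0.75 g/L arrays were below all the others and the groups above 1 g/L overlapped with each other. The 1 g/L arrays of both ORFs stood above all those at 3 and 5 g/L.

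YML082W, paralog of the cystathionine gamma-synthase gene STR2, had a mean of 20.5 ± 3.9 at 0.75 g/L and 57.8 to 68.8 at the other concentrations. YML018C, a membrane protein of the vacuole and paralog of THI74, had 96.2 ± 24.2 at 0.75 g/L and 228.7 ± 85.3 at 1 g/L, where 1 array gave 130.8 and the others 286.8 and 268.4. YOR342C, paralog of YAL037W, had 25.5 ± 3.7 at 0.75 g/L and 68.5 ± 10.7 at 1 g/L. These 3 ORFs were low at 0.75 g/L alone, and the order of their means from 1 to 5 g/L lay within the spread between arrays.

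YDR034C-A did not share this form. It gave 201.0, 56.2 and 117.9 with 0.75 g/L, 557.0, 545.1 and 331.8 with 1 g/L, 438.8, 199.0 and 324.5 with 1.5 g/L, 753.9, 69.3 and 57.9 with 3 g/L, and 508.2, 80.1 and 88.2 with 5 g/L. Replicate 1 stood far above replicates 2 and 3 at both 3 and 5 g/L, so the spread between arrays was larger than the differences between those groups. Its row has the suffix s, which marks probes shared by several sequences. Another 4 rows of this ORF, with probes of its own, had highest means of 5.2 to 9.9, below the background level. Its 2 rows for a family of similar sequences (suffix f) had highest means of 39.3 at 3 g/L and 62.2 at 1 g/L, at ratios of 2.91 and 2.24. A further 5 rows that list it together with others reached at most 312.4, at ratios up to 1.83.

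Counting 4 rows described next with their highest mean at 5 g/L, 10 rows were lowest at 0.75 g/L. In 9 of these all 0.75 g/L arrays were below the other 12, which held for 14.3% of all tested probe sets. The choice of rows favours this as well, so nothing is read from the 9 beside that share. Within fluidics run A the single 3 g/L array was 1.62 to 6.03 times the 0.75 g/L mean in these 10 rows, with a median of 2.66. The 6.03 was that of YDR034C-A, whose run A array gave 753.9 against 69.3 and 57.9 on the other 3 g/L arrays. The next highest was 3.77, in YNL095C. The rule used these same arrays, so these folds are a description.

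Of the 25 rows highest at 5 g/L, 10 had probes of their own ORF and 15 had the suffix f, which marks a probe set for a family of similar sequences. The 10 rows were led by YOR338W, an ORF of unknown function and paralog of FUN19. It gave 4.6, 2.0 and 6.8 with 0.75 g/L, 5.9, 1.1 and 5.7 with 1 g/L, 9.6, 8.5 and 8.0 with 1.5 g/L, 24.8, 45.7 and 43.5 with 3 g/L, and 71.6, 72.3 and 68.7 with 5 g/L. All 9 arrays up to 1.5 g/L were under the background level, and the 5 g/L mean was at least 5.25-fold above it. YNR068C, which resembles the ubiquitin ligase adaptor Bul1, gave 74.4, 70.9 and 70.1 with 0.75 g/L, 32.8, 37.0 and 20.2 with 1 g/L, 85.1, 74.6 and 85.1 with 1.5 g/L, 120.4, 159.9 and 156.7 with 3 g/L, and 163.0, 140.6 and 152.2 with 5 g/L. Here the lowest group was 1 g/L without overlap, and 3 and 5 g/L overlapped.

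YIL165C codes for part of a nitrilase, and in other yeast strains it forms a single reading frame with NIT1 next to it. Its signal was 199.5, 164.0 and 181.8 with 0.75 g/L, 176.9, 151.9 and 182.4 with 1 g/L, 298.3, 225.4 and 363.4 with 1.5 g/L, 569.2, 638.1 and 598.8 with 3 g/L, and 644.3, 717.3 and 676.5 with 5 g/L. Values at 0.75 and 1 g/L overlapped, and from there each group stood above the one before it. YBR085C-A, uncharacterised, gave 637.3, 630.5 and 605.4 with 0.75 g/L, 239.9, 255.4 and 204.2 with 1 g/L, 245.5, 327.8 and 359.2 with 1.5 g/L, 667.9, 592.0 and 561.3 with 3 g/L, and 886.5, 820.2 and 968.4 with 5 g/L. It was therefore high at both ends, with the arrays at 0.75 g/L among those at 3 g/L. YJL213W, an amidohydrolase homologue, and YDR222W, paralog of YLR225C, had their lowest means at 1 g/L too, with 44.9 ± 12.5 and 109.3 ± 11.0 there against 89.3 ± 5.3 and 205.0 ± 7.8 at 0.75 g/L, and their highest at 5 g/L were 169.5 ± 31.0 and 357.9 ± 75.0.

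YHR020W, known to code for prolyl-tRNA synthetase although the array lists only its systematic name, gave 133.6, 128.0 and 108.8 with 0.75 g/L, 360.4, 258.1 and 298.0 with 1 g/L, 300.4, 261.6 and 268.5 with 1.5 g/L, 431.3, 549.7 and 445.0 with 3 g/L, and 590.7, 435.7 and 490.8 with 5 g/L. It was lowest at 0.75 g/L without overlap, and the pairs 1 with 1.5 g/L and 3 with 5 g/L overlapped. YNL095C, paralog of ECM3, had means of 13.1 ± 2.8, 34.7 ± 6.0, 43.0 ± 0.5, 60.7 ± 8.7 and 64.5 ± 6.9 from the lowest to the highest mannose. The uncharacterised YER137C and YMR187C were lowest at 0.75 g/L as well, with 12.9 ± 5.6 and 25.2 ± 1.0 there and 52.6 ± 18.5 and 63.2 ± 6.9 at 5 g/L.

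The 15 rows with the suffix f came from 3 ORFs: YGR109W-B with 12 rows, YOR192C-C with 2 and YIL060W with 1. YGR109W-B is the reading frame of the Ty3 retrotransposon for its coat protein and polymerase polyprotein. The geometric mean of its 12 rows was 84.5, 91.1 and 90.2 with 0.75 g/L, 70.8, 60.0 and 68.7 with 1 g/L, 111, 91.1 and 87.0 with 1.5 g/L, 172, 171 and 162 with 3 g/L, and 211, 233 and 207 with 5 g/L. All arrays at 5 g/L were above all at 3 g/L, and these above all the others. The 12 rows share their target sequences and are not independent measurements.

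YGR109W-B has 23 rows in all that carry it as the single symbol. Besides the 12, 8 more had the suffix f, 7 of them with their highest mean at 5 g/L, and the nearest to the limits had a ratio of 2.46. The 3 rows without the suffix f had highest means of 0.7 to 21.4, and 8 further rows that list this ORF together with others reached at most 22.2. For the remaining f rows the picture was alike: YIL060W had a row of its own with a highest mean of 8.0 beside the f row with 473.7 ± 179.9 at 5 g/L, of which 1 array gave 680.3 and the others 389.3 and 351.5, and YOR192C-C had 3 rows of its own with highest means of 1.3 to 3.3 beside f rows with 144.8 ± 11.4 and 162.6 ± 25.4. Which copies or family members gave the f signals was not tested.

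**Figure D3:**
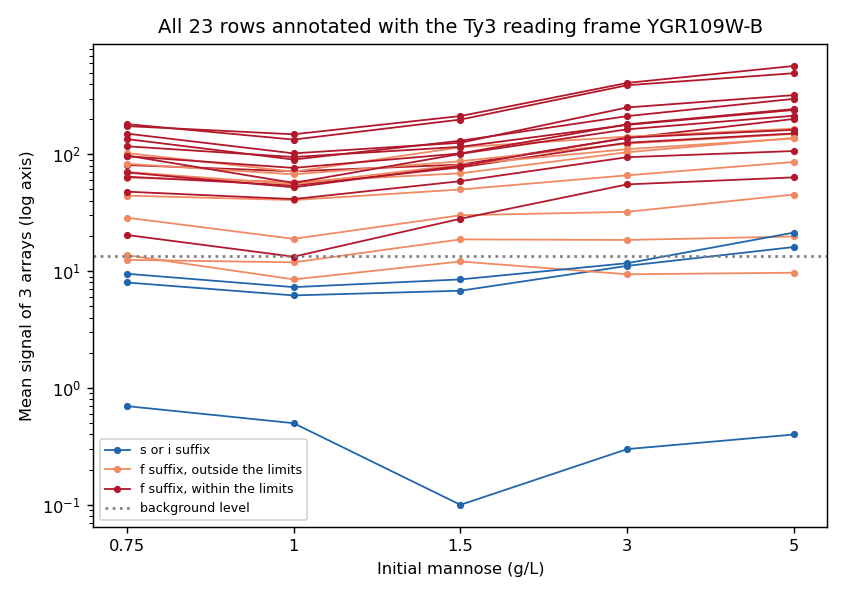
Mean signal of 3 arrays (log axis) against initial mannose in g/L, on equally spaced positions, for each of the 23 rows annotated with YGR109W-B alone. The 12 rows within the limits and most of the 8 others with the suffix f are highest at 5 g/L, while the 3 rows with the suffix s or i reach highest means of 0.7 to 21.4, next to the background level of 13.5 (dotted).

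Over all 25 rows highest at 5 g/L, the mean at 1 g/L was below that at 0.75 g/L in 21. Of these 21, 6 had probes of their own and the others were f rows of 3 ORFs. No share over all probe sets was computed, and the 1 g/L arrays made up run D by themselves. Nothing is therefore read from the 21. In 14 rows all arrays at 5 g/L stood above the other 12, which held for 3.05% of all tested probe sets. Those with probes of their own were YOR338W, YIL165C, YBR085C-A and YJL213W. The others were f rows, mostly of YGR109W-B, whose rows are not independent, so the 14 cannot be set against that share. The mean at 3 g/L was 1.09 to 2.81 times that at 1.5 g/L, with a median of 1.69, and the mean at 5 g/L was 1.04 to 1.86 times that at 3 g/L, with a median of 1.28. Within run C, the single 5 g/L array was 1.39 to 5.09 times the 1.5 g/L mean (median 2.01). Within run B, the 5 g/L mean was 0.844 to 1.70 times the 3 g/L mean (median 1.31). For the 10 rows with probes of their own this median was 1.06. The folds within runs come from arrays that the rule used, so they are a description.

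The limits cut through a continuum. Just inside the ratio stood YMR187C at 2.51 and a YOR192C-C row at 2.53, and just outside a YGR109W-B row at 2.46 and YJR079W at 2.45. Just inside the limit on the highest mean stood YOR292C at 51.4 and YER137C at 52.6, and just outside YJL163C at 49.7 and YCL048W-A at 45.9. When the limits were applied to replicates of 2 numbers and the third was read, 59 of 60, 55 of 55 and 68 of 70 rows so chosen went the same way in the array left out, and 45, 44 and 43 reached 2.5-fold there. The share going the same way over all probe sets was not computed, and the arrays of a group may come from 1 culture. Nothing is therefore read from the counts of direction or from those that reached 2.5-fold. Without 1 array, 46 of the 59 rows stayed within the limits whichever array it was. The 13 others were rows of YOR292C, YMR262W, YJR115W, YIR016W, YOR012W, YML018C, YER137C, YIL060W and YMR187C, both rows of YOR192C-C and 2 rows of YGR109W-B. The third replicate was also read for all rows with only a systematic name and a highest mean of 50 or more. There 52 of 192, 62 of 188 and 51 of 192 reached 2.5-fold between their own highest and lowest concentration. These sets include the chosen rows, so they are no separate measure.

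For the ORFs with the largest ratios, the named genes with the most similar signal over the 15 arrays were looked up by Pearson correlation, which is given as a description. YNL194C was closest to HSP30 (0.989), a plasma membrane heat shock protein, NNR2 (0.977) and SPI1 (0.974), a cell wall protein. YMR196W was closest to GAD1 (0.989), glutamate decarboxylase, and YPL247C to GSY2 (0.990), glycogen synthase. YKL091C was closest to SYM1 (0.991), and YPR127W to GRX1 (0.963), a glutaredoxin, CHP1 (0.962) and GCY1 (0.955), an aldo-keto reductase. The arrays at 0.75 g/L were high in each of these genes, for example with a mean of 4028.1 for HSP30 against 447.7 at 1 g/L.

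YCR051W was closest to SSF1 (0.989) and YCR087C-A to UTP15 (0.993), both ribosome assembly genes, and YML082W to NOP15 (0.974). YOR342C was closest to POL12 (0.928) and NOP58 (0.916), and YML018C to the hexose transporter gene HXT2 (0.941). YDR034C-A had no such close gene, at most 0.814 with SIR4. Among the ORFs high at 5 g/L, YIL165C was closest to AGA2 (0.989), a subunit of the mating agglutinin, and ECM13 (0.982), YOR338W to FRM2 (0.963) and PRM5 (0.955), a gene known to respond to pheromone, and YNR068C to FMP23 (0.967). The Ty3 row of largest ratio was closest to RIB5 (0.977), riboflavin synthase, TIP1 (0.971), a cell wall mannoprotein, and BIO3 (0.970), of biotin synthesis.

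Lists of known genes for ribosome biogenesis and for storage carbohydrate and stress gave a yardstick. Of 25 ribosome biogenesis genes, all tested, 9 rose with mannose in the limma trend, 0 fell and 24 differed between concentrations, with a median slope of 0.55 per doubling of mannose against 0.02 over all probe sets. The assembly factor IMP4 rose by 0.66 ± 0.16 (SE, log2 signal per doubling, adjusted p = 0.0084). Its means were 18.9 ± 0.9, 70.9 ± 12.6, 88.9 ± 24.3, 98.5 ± 13.2 and 99.3 ± 16.9 from the lowest to the highest mannose. The count of 9 depended on single arrays and was 3 without any 1 of the arrays at 0.75 g/L. It was 14 without replicate 1 and 15 without replicate 3 of 1 g/L. With all 0.75 g/L arrays left out 1 of the 25 genes was called, and it fell. With a slope on g/L 0 were called. UTP7 rose by 0.60 ± 0.17 (adjusted p = 0.0173), NOC4 by 0.72 ± 0.20 (0.0179) and RLP7 by 0.61 ± 0.18 (0.0227). UTP7 and NOC4 had means of 6.4 and 5.8 at 0.75 g/L, under the background level, and with a floor of 20 their slopes were 0.20 (adjusted p = 0.075) and 0.27 (0.0313), while 2 of the 25 genes were called. With the run block 5 were called, and the adjusted p was 0.0512 for IMP4 and 0.077 for UTP7. Rows of the 47 ORFs lowest at 0.75 g/L correlated with the mean of this list at 0.33 to 0.99, with a median of 0.86 over 10 rows, and 309 rows of named genes outside the lists that met the same limits and were lowest at 0.75 g/L had a median of 0.92.

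Of 21 genes of storage carbohydrate and stress, 0 rose, 14 fell and 20 differed between concentrations, with a median slope of -0.51. The 14 became 7 with the run block, 6 with a slope on g/L, and 9 without the 0.75 g/L arrays, of which 3 rose. The hexokinase gene HXK1 had a slope of -1.22 ± 0.17 (adjusted p = 0.000109 in limma) and means of 2473.6 ± 157.3 at 0.75 g/L and 188.4 ± 79.4 at 3 g/L. GSY1, glycogen synthase, had -0.69 ± 0.12 (0.000558), TSL1, of the trehalose synthase complex, -0.71 ± 0.12 (0.000719), and SOD2, the mitochondrial superoxide dismutase, -0.47 ± 0.09 (0.00123). The 28 rows highest at 0.75 g/L correlated with the mean of this list at 0.67 to 0.99, with a median of 0.89, and 229 rows of named genes chosen in the same way had a median of 0.87. The grouping by concentration fixes much of these correlations, so nothing particular to the ORFs is read from them. The 21 rows highest at 5 g/L and lowest at 1 g/L followed neither list closely, with median correlations of 0.23 with ribosome biogenesis and -0.35 with storage and stress, and for 51 such rows of named genes these were 0.22 and -0.36.

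The genes next to the ORFs on the chromosome were not used to choose them and could be tested. Of 97 pairs of an ORF and its neighbour, 2 were of ORFs already described, 14 neighbours had no probe set of a single symbol (4 of them tRNA genes) and 10 were under the signal filter, which left 71 genes. Of these, 16 rose and 11 fell with mannose, 38.0% against 23.7% of all tested probe sets, and 39 (54.9% against 46.6%) differed between concentrations. With the fluidics run as a block, a trend was called in 10 of the 71, or 14.1% against 12.6% of all tested probe sets. The split turned with the scaling: quantile normalization left 14 rising against 16 falling, and under median scaling 14 rose and 19 fell. Neighbours of ORFs highest at 5 g/L numbered 19, of which 11 rose and 0 fell, and neighbours of ORFs highest at 0.75 g/L numbered 45, of which 5 rose and 10 fell. With the run block these counts were 5 higher and 0 lower of 19, and 1 higher and 4 lower of 45. Among the 19, both other scalings gave 9 higher and 2 lower. The 19 include neighbours of YGR109W-B, YIL060W and YOR192C-C, among them CLD1, SNP1 and THI72 of the 11 that rose. These ORFs entered by f rows, so it was not tested whether the copy next to these neighbours gave the signal.

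Both neighbours of YOR338W rose. UBC11, a ubiquitin-conjugating enzyme gene downstream of it on the opposite strand, had means of 0.7 ± 0.6, 1.1 ± 0.6, 2.0 ± 1.5, 33.0 ± 6.4 and 54.9 ± 8.6, so that 5 g/L was at least 4.07-fold above the background level. Its slope was 2.18 ± 0.18 (adjusted p = 6.79e-07), a size that depends on the floor of 1.5, as it was 0.53 with a floor of 20. TEA1, a transcription activator gene on the same strand as YOR338W, rose by 0.63 ± 0.07 (adjusted p = 1.85e-05), from 34.7 ± 3.3 at 0.75 g/L to 96.5 ± 21.0 at 5 g/L. Over the 15 arrays UBC11 and TEA1 correlated with YOR338W at 0.93 and 0.92.

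NIT1, the other part of the nitrilase frame beside YIL165C, rose by 0.81 ± 0.09 (adjusted p = 1.1e-05 in limma), with means of 155.1 ± 16.5, 145.3 ± 14.9, 318.6 ± 67.6, 561.7 ± 57.1 and 571.6 ± 75.5. It followed YIL165C at 0.98 over the 15 arrays. SOA1, a sulfur compound transporter gene on the other side, rose by 0.29 ± 0.06 (adjusted p = 0.00378), and with the fluidics run as a block its adjusted p was 0.0818. BSC5, beside YNR068C on the same strand, rose by 0.70 ± 0.12 (adjusted p = 0.000638), with means of 10.2 ± 3.5, 6.4 ± 1.7, 13.4 ± 1.9, 28.1 ± 2.7 and 24.2 ± 1.4. Like YNR068C it was lowest at 1 g/L, although its means up to 1.5 g/L lie under the background level, and with a floor of 20 its slope was 0.15 (adjusted p = 0.0128).

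CLD1, a cardiolipin lipase gene beside the Ty3 reading frame YGR109W-B, rose by 0.42 ± 0.07 (adjusted p = 0.000389), from 23.5 ± 3.5 at 0.75 g/L to 44.6 ± 7.8 at 5 g/L, and with the run block its adjusted p was 0.0628. SNP1, of the U1 spliceosomal particle and beside YIL060W, rose by 0.42 ± 0.09 (0.00294). The remaining 4 called neighbours of ORFs high at 5 g/L, taken after their values were seen, were THI72 (0.33 ± 0.08, 0.00967), CRF1 (0.56 ± 0.16, 0.019), DED81 (0.22 ± 0.06, 0.02) and GTB1 (0.24 ± 0.08, 0.0297). With the run block none of these 4 was called, at adjusted p of 0.115, 0.453, 0.132 and 0.748. The CRF1 means, 3.8 to 14.9, lay around or under the background level, and its slope was 0.00 with a floor of 20.

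Near ORFs high at 0.75 g/L the neighbours went both ways, with 5 higher and 10 lower of 45. Those described here had the smallest adjusted p, so most of those that fell are not described. RFS1, a flavodoxin-like protein gene beside YBR053C, fell from 676.5 ± 113.8 at 0.75 g/L to 155.9 ± 17.8 at 5 g/L, with a slope of -0.58 ± 0.14 (adjusted p = 0.00776), and without the 0.75 g/L arrays its adjusted p was 0.118. YBL029W, which shares an upstream region with YBL029C-A, had a slope of -0.49 ± 0.10 (0.00236) but its highest mean, 43.9 ± 4.2, at 1 g/L. MET28, a sulfur metabolism regulator gene beside YIR016W, rose by 0.34 ± 0.06 (0.00148), opposite to its neighbour, and so did FYV6 beside YNL134C (0.39 ± 0.09, 0.00654) and JJJ3 beside YJR096W (0.44 ± 0.10, 0.00663). With the run block the adjusted p of these 3 was 0.0693, 0.168 and 0.179, and without the 0.75 g/L arrays that of FYV6 was 0.0855 and that of JJJ3 0.0996.

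**Figure D4:**
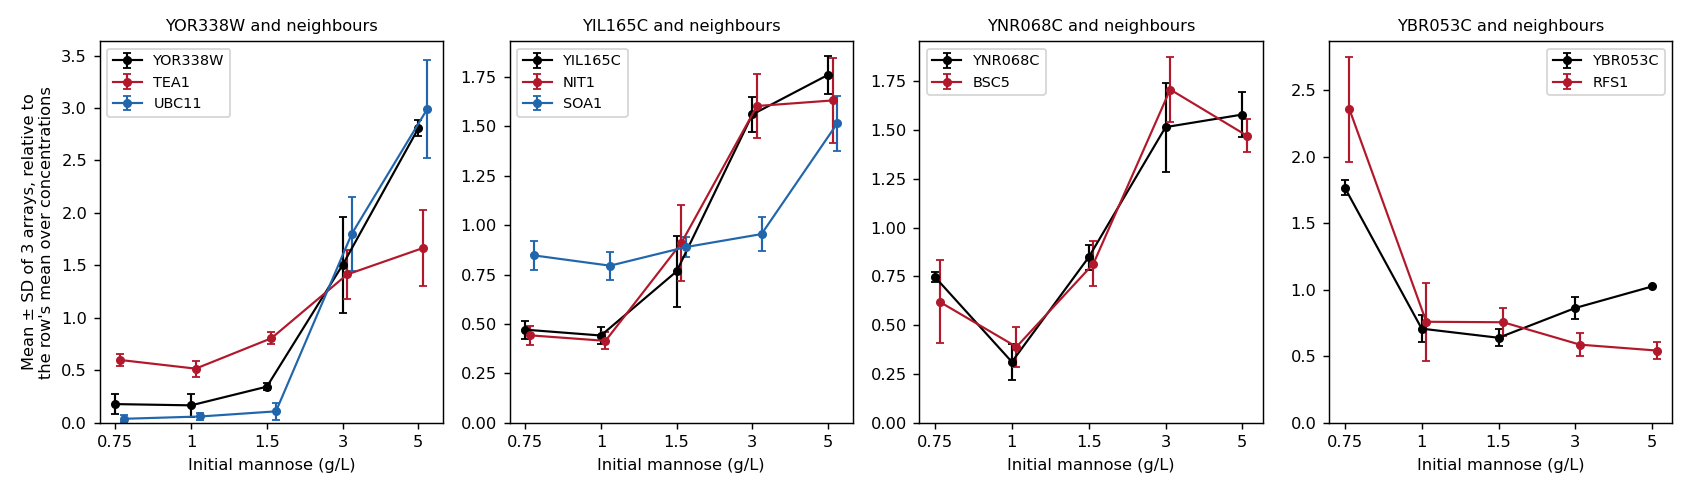
Means and SD of 3 arrays by initial mannose in g/L, on equally spaced positions, each divided by the gene's own mean over the 5 concentrations, for 4 ORFs (black) and neighbouring genes (red, blue). UBC11 and TEA1 are highest at 5 g/L with YOR338W, NIT1 follows YIL165C, BSC5 is lowest at 1 g/L with YNR068C, and RFS1 is highest at 0.75 g/L with YBR053C.

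A further comparison set 15 of the ORFs beside a named or better known relative, 11 paralogs and 4 more distant homologues, listed after the signals were known. All 15 relatives were tested: 3 rose, 3 fell, 9 had no called trend, and 11 differed between concentrations. FMP45, the paralog of YNL194C, differed between concentrations (adjusted p = 7.47e-08, F-test in limma), with means of 1359.8 ± 90.5, 66.5 ± 15.3, 115.2 ± 32.4, 200.9 ± 51.0 and 404.9 ± 38.1, and followed YNL194C at 0.97. It had no called trend over the whole series (slope -0.08 ± 0.38, adjusted p = 0.914) and rose by 1.08 per doubling from 1 to 5 g/L when the 0.75 g/L arrays were left out (adjusted p = 5.64e-06). SYM1, the homologue of YOR292C, fell with a slope of -0.76 ± 0.18 (adjusted p = 0.00645), from 178.1 ± 19.1 at 0.75 g/L to 26.2 ± 2.4 at 5 g/L. PFK26, the homologue of YLR345W, had a slope of -0.26 ± 0.09 (adjusted p = 0.041), past the threshold in 13 of 26 other settings.

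In other pairs the relative ran differently from the unnamed ORF. ECM13, the paralog of YJR115W, rose by 1.06 ± 0.08 (adjusted p = 1.56e-07), from 61.5 ± 8.0 at 0.75 g/L to 355.3 ± 21.9 at 5 g/L, while YJR115W gave 20.3 to 91.9 at 0.75 g/L and 21.4 to 26.2 at 5 g/L. ECM3, the paralog of YNL095C, fell with a slope of -0.46 ± 0.07 (adjusted p = 0.000343), from 38.6 ± 9.6 to 16.1 ± 1.3, against means of 13.1 and 64.5 for YNL095C. FUN19, the paralog of YOR338W, had its highest mean at 0.75 g/L, 208.6 ± 47.2, with 59.9 ± 15.6 at 1 g/L and 97.8 ± 35.0 at 5 g/L (F-test, adjusted p = 0.00181). YOL036W, the paralog of YIR016W, rose by 0.40 ± 0.07 (adjusted p = 0.000821), and its correlation with YIR016W was -0.40. STR2, the paralog of YML082W, rose by 0.49 ± 0.12 (adjusted p = 0.00886), with an adjusted p of 0.0859 under the run block.

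YAL037W, the paralog of YOR342C, was highest at 0.75 g/L, with 45.9 ± 6.9 against 21.2 ± 5.8 at 1 g/L (F-test, adjusted p = 0.00199), where YOR342C was lowest. AFR1, the paralog of YER158C, had 40.3 ± 4.6 at 0.75 g/L and 13.1 to 21.6 at the other concentrations (F-test, adjusted p = 0.000994). PSP2, THI74, SEC14 and CPS1 had neither a called trend nor a called difference between concentrations, with F-test adjusted p from 0.0668 (SEC14) to 0.648 (PSP2), and YLR225C had a called difference only (0.0378).

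**Figure D5:**
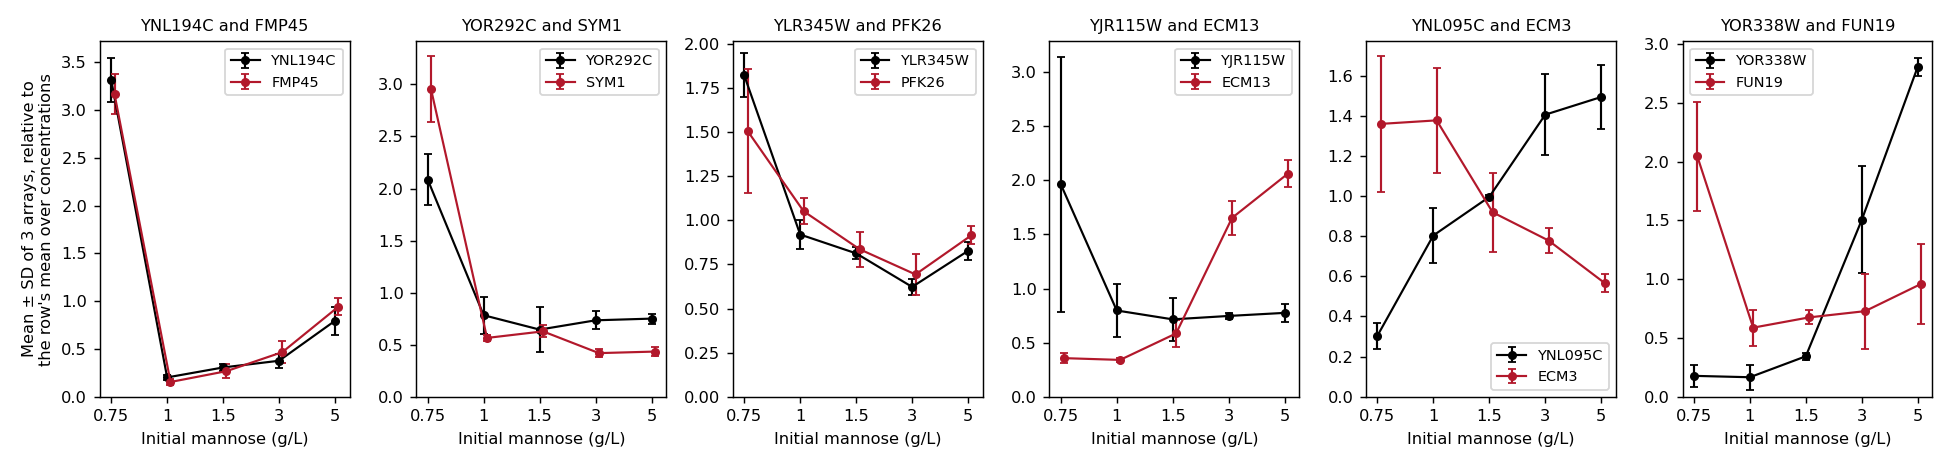
Means and SD of 3 arrays by initial mannose in g/L, on equally spaced positions, each divided by the gene's own mean over the 5 concentrations, for 6 ORFs (black) and a paralog or homologue (red). FMP45 and SYM1 are highest at 0.75 g/L with their relatives, while ECM13 is highest at 5 g/L and YJR115W at 0.75 g/L, ECM3 falls where YNL095C is highest at 5 g/L, and FUN19 is highest where YOR338W is near its lowest.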

How the data were processed

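Total RNA of 15 samples was measured on the Affymetrix YG_S98 array. The authors deposited linear signal intensity for 9335 probe sets. The method of computing it from probes is not given here, and near-equal 2% trimmed means show that the arrays had been scaled. The array records were read for stations and times, from which fluidics runs were inferred, for completion of the run, and for a sample code. Symbols came from the platform annotation (6504 probe sets with 1 symbol, 328 with several, 2443 with none, and the last 2 kinds were not named), and neighbours from RefSeq R64, with the strand read from the systematic name.

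Group means are arithmetic means of signal as deposited. For tests, values under 1.5 (10th percentile) were set to it, log2 was taken, 60 controls and probe sets with a mean under the 25th percentile were left out, and limma 3.58.1 in R 4.3.3 was fitted to 6956 probe sets on all 15 arrays, with Benjamini-Hochberg adjustment and a threshold of 0.05. The trend is a slope on log2 mannose and any difference an F-test. The fits were tested on simulated data. Tables were made with Python 3.11.15.

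The members, the lists and the tests were chosen with earlier results of these data known. Named are, in each group by highest concentration, the 6 rows of largest ratio and the 6 of largest signal, rows next to the limits, the 3 most alike genes of the former (some of which are not printed), 12 neighbours and 4 genes of each list by adjusted p, PMI40, and further members and the relatives, chosen after their values were seen. Alternatives covered scaling, floor, filter, variance model, limits, runs, replicate number, and arrays or a concentration left out. Replicate numbers were taken as unpaired: of 30 correlations between arrays with 1 number in different groups, 4 exceeded 0.1. Separate cultures are not stated in the labels for the 3 arrays of a group, and in the array records these share a sample code. The p-values thus measure the spread between arrays, which may be technical, and this number of arrays limits precision.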

Additional observations from a re-analysis of the deposited data

How the results depend on the processing

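Leaving out 1 array gave 56 to 66 rows within the limits in place of 59, and 46 rows stayed within them whichever array was left out. Quantile normalization and median scaling each kept 52 of the 59 rows and geometric means 58, and the concentration of the highest mean was the same in 56, 58 and 58. A ratio of 2 gave 96 rows, a ratio of 3 gave 39, and without the 0.75 g/L arrays 23 were left.

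With the run block the trend was called in 875 probe sets in place of 1646, in 10 neighbours in place of 27, in 5 ribosome biogenesis genes in place of 9 and in 7 storage genes in place of 14. A slope on g/L gave 16 neighbours, 0 ribosome and 6 storage genes, a floor of 20 gave 2 and 9, no filter gave 5 ribosome genes, and without the 0.75 g/L arrays there were 1 (falling) and 9 (3 rising), and 1147 in place of 3241 probe sets with any difference. One array left out gave 1242 to 1676 trends, 2756 to 3269 differences, 20 to 28 neighbours, 3 to 15 ribosome genes, 10 to 15 storage genes and 5 to 6 relatives. Of the trend calls 60.5% were higher, against 46.6% after quantile normalization and 34.1% after median scaling. With the replicate number as a block, 1378 trends were called, and PFK26 was no longer called (adjusted p = 0.0602). Without the 0.75 g/L arrays YAL037W had a called trend (slope 0.43, adjusted p = 0.00228). The cause of these shifts was not tested. Promoter words were not run, since no promoter sequences were used here. Ratios against a group under background on all arrays are bounds.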
